A study of Homo sapiens with 9 samples.

Results

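The genes described here are 30 factors that carry mRNA out of the nucleus, mark its exon junctions and degrade it when it holds a premature stop codon. They were chosen by name, as known parts of this machinery, and all 30 were found among the 60609 gene identifiers of the count tables. RNA was sequenced after ribosomal RNA removal from U2-OS cells, an established human osteosarcoma line. By their labels, clones A1 and A4 overexpress the cap-binding protein NCBP2 and gave replicates A, B and C each, 6 libraries in all. The other 3 libraries came from 3 clones that were made the same way and carry an empty vector, 1 library per clone. The labels name no further allele, agent or time point, no promoter for the NCBP2 construct, and they do not say that the libraries of 1 clone were separate cultures. The p-values below therefore measure the spread between these libraries, part of which may be technical, and the NCBP2 side rests on 2 clones.

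Nuclear mRNA carries a methylated cap at its 5′ end, which is bound by the cap-binding complex of NCBP1 and NCBP2. In textbook accounts this complex helps TREX, formed by the THO complex, a helicase and adaptors such as ALYREF, to load near the cap. TREX then passes the mRNA to the export receptor NXF1-NXT1. Splicing leaves an exon junction complex just upstream of the junction between joined exons. Such a complex that stays downstream of a stop codon lets the UPF and SMG proteins start nonsense-mediated decay (NMD). The comparisons below ask how far the RNA levels of this machinery differ between cells with added NCBP2 and cells without it.

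NCBP2 itself was measured at 299, 348 and 305 for clone A1, 796, 1035 and 456 for clone A4 and 98.4, 90.6 and 98.3 for vector, in CPM (counts relative to the library total after TMM scaling, always in the order of replicates A, B and C). All 6 libraries of the NCBP2 clones lay above all 3 vector libraries, as their labels state. Set against vector, the NCBP2 level was 3.31-fold higher for clone A1 (adjusted p = 0.0327) and 7.96-fold higher for clone A4 (adjusted p = 0.000417), by edgeR's quasi-likelihood test with Benjamini-Hochberg adjustment over all 21682 genes tested, which is the test used throughout. With both clones pooled against vector the log2 fold change of NCBP2 was 2.50 and the adjusted p 0.123 by edgeR, and between the clones, clone A4 was higher by 1.26 on the log2 scale (adjusted p = 0.0764). Gene counts ranged from 29234022 to 50554080 per library. The mesenchymal and bone markers VIM, FN1, SPARC, CD44, RUNX2 and COL1A1 were counted in every library (CD44, the lowest, at 99.5 to 184 CPM), epithelial EPCAM reached 5.58 CPM, and TERT, ALB and PECAM1 were too low to be tested. Clone A1 replicate A and vector replicate B stood apart from the other libraries, with the lowest quality weights of the 9 in limma (0.305 and 0.421), and values without them are given below for some of the 30 genes.

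None of the 30 genes passed the threshold of an adjusted p of 0.05 in any of the 4 comparisons. With all 6 NCBP2 libraries set against the 3 vector libraries, 15 genes had a log2 fold change above 0 and 15 below, and the median was -0.0031, beside 0.024 over all genes. Over all genes, 0.0184% passed the threshold in that comparison. The share was 0.0646% for clone A1 against vector, 0.115% for clone A4 against vector and 0.161% for clone A4 against clone A1, so a count of 0 among 30 is near the background in each. DESeq2 and voom also called 0 of the 30 in each comparison. Before adjustment, an edgeR p under 0.05 was reached by 0 of the 30 for the NCBP2 clones together (5.71% of all genes), by 1 for clone A1 (7.51%), by 0 for clone A4 (5.25%) and by 2 between the clones (6.63%). Both comparisons of a clone with vector share the same 3 vector libraries, and the comparison of the clones shares libraries with both.

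The intervals show how large a difference the data leave room for. The 95% interval of the log2 fold change lay wholly within -1 to 1, a change of less than 2-fold either way, for 27 of the 30 genes in the NCBP2 clones together, for 22 in clone A1 and for 25 in clone A4. The estimates were smaller than 0.5 in size for 29, 27 and 29 genes. In data simulated from these libraries, the test called 21.8% of the genes changed 2-fold in the comparison of the NCBP2 clones with vector, 10.3% for clone A1 and 12.6% for clone A4, in fits over 20800 genes. The changed genes were drawn at random from all genes kept by the filter, with the spread of the fit in 2 groups. These shares are not specific to the 30 genes. A gene that misses the threshold here is therefore not shown to be equal between the groups. No gene of the 30 separated all 6 NCBP2 libraries from all 3 vector libraries, beside 3.74% of all genes that did.

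**Figure D1:**
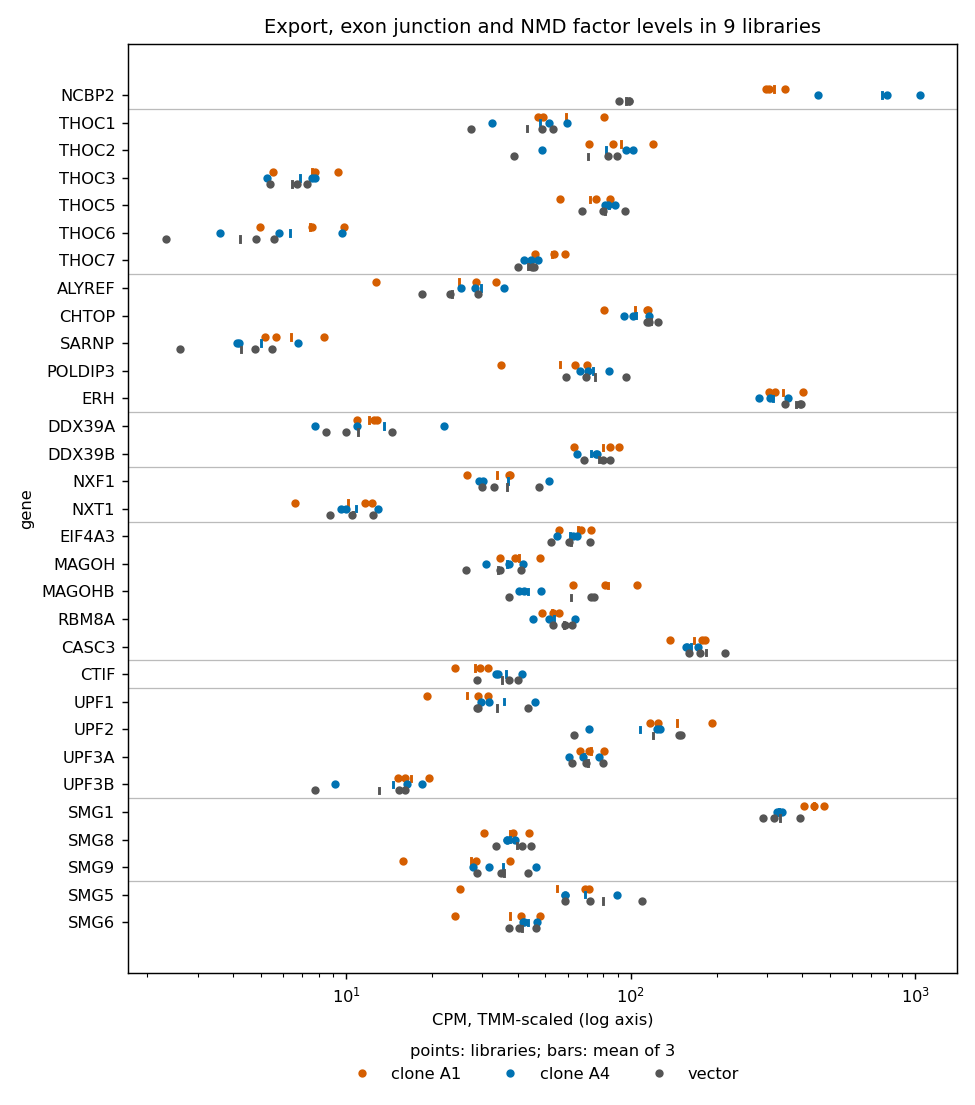
Levels of NCBP2 and the 30 genes in TMM-scaled CPM (log axis), with 1 point per library, a bar at each group mean (n = 3) and grey lines between functional groups. NCBP2 separates the 3 groups, while for most of the 30 genes the points of the groups overlap; MAGOHB, SMG1 and CTIF separate clone A4 from clone A1.

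The THO complex, the scaffold of TREX, had positive log2 fold changes for 5 of its 6 measured subunits in the NCBP2 clones together, with a median of 0.23 and none past the threshold. Without clone A1 replicate A and vector replicate B together, 3 of the 6 were above 0 and the median was 0.0036. THOC2, the largest subunit and the scaffold of the others, was at 119, 86.6 and 71.2 for clone A1, 95.9, 48.6 and 102 for clone A4 and 89.3, 38.8 and 83.3 for vector. THOC1 was at 80.4, 47.2 and 49.3 for clone A1, 59.8, 32.6 and 51.6 for clone A4 and 48.9, 27.5 and 53.0 for vector. In both genes the highest library was clone A1 replicate A and the lowest vector replicate B, the libraries that stood apart, and the groups overlapped. THOC5 was at 56.1, 84.5 and 75.5 for clone A1, 81.3, 87.7 and 83.2 for clone A4 and 80.0, 95.02 and 67.5 for vector, with a log2 fold change of -0.05 for the NCBP2 clones. THOC7, its coiled-coil partner, was at 58.7, 46.2 and 53.6 for clone A1, 42.1, 44.5 and 47.2 for clone A4 and 44.9, 40.1 and 45.7 for vector. The clone A1 libraries of THOC7 all lay above the vector libraries, but the closest pair was 46.2 against 45.7 CPM, and the log2 fold change was 0.28 (SE 0.167, 95% interval -0.09 to 0.64), with an edgeR adjusted p of 0.760. It was 0.025 once a trend with GC content and length was taken out, as described below.

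THOC6, which holds THO units together, had the largest log2 fold change of the 30 genes in each comparison with vector, 0.70 (SE 0.376, 95% interval -0.11 to 1.51) for the NCBP2 clones, 0.81 for clone A1 and 0.58 for clone A4. The edgeR adjusted p was 0.946 for the NCBP2 clones and the intervals include 0. Its levels were 4.96, 7.56 and 9.78 for clone A1, 5.79, 3.59 and 9.63 for clone A4 and 4.81, 5.56 and 2.32 for vector, the lowest per length of the 30 in the vector libraries (2.998 ± 1.20 CPM per kilobase, SD, n = 3). Vector replicate C was the lowest of the 9 libraries, vector replicate B lay within the range of both clones and vector replicate A within that of clone A4. THOC3, a WD-repeat subunit, was at 9.36, 5.54 and 7.76 for clone A1, 7.74, 7.58 and 5.26 for clone A4 and 7.28, 5.39 and 6.71 for vector. For THOC3, 70.5% of the 75-base windows of its canonical transcript also occur in transcripts of other genes, so its unique reads cover a small part of it.

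The TREX adaptors and partners had a median log2 fold change of -0.19 in the NCBP2 clones together, with 2 of 5 above 0, and of 0.15, with 3 of 5 above 0, without clone A1 replicate A and vector replicate B. ALYREF, the adaptor that contacts the cap-binding complex and hands mRNA to NXF1, was at 12.7, 33.7 and 28.5 for clone A1, 28.2, 25.2 and 35.9 for clone A4 and 23.1, 29.0 and 18.4 for vector. Its log2 fold change was 0.22 (SE 0.277, 95% interval -0.38 to 0.82) and its groups overlapped, with clone A1 replicate A lowest of all. It was 0.35 without clone A1 replicate A (edgeR adjusted p = 0.842) and 0.55 without vector replicate B as well, where its edgeR adjusted p of 0.408 was the smallest of the 30. CHTOP, another adaptor, was at 80.2, 114 and 115 for clone A1, 102, 116 and 94.5 for clone A4 and 115, 125 and 114 for vector. CHTOP had a narrow interval, -0.19 (SE 0.147, 95% interval -0.51 to 0.13), and its groups overlapped, since the highest NCBP2 library, at 116 CPM, lay above the lowest vector library at 114 CPM. Once the trend with GC content and length was taken out, all its NCBP2 libraries lay below the vector libraries, the closest at 110.2 and 111.3 CPM. It was the 1 gene of the 30 to do so, beside 5.50% of all genes, at an edgeR adjusted p of 0.755. POLDIP3, an adaptor that binds S6 kinase, was at 35.1, 63.5 and 69.9 for clone A1, 66.5, 70.7 and 84.0 for clone A4 and 69.3, 96.2 and 59.0 for vector, and 96.5% of its 75-base windows also lie in an overlapping annotated gene. SARNP was at 8.34, 5.65 and 5.17 for clone A1, 4.20, 6.76 and 4.14 for clone A4 and 2.60, 4.78 and 5.47 for vector, but 60.3% of its stranded reads lay on the opposite strand and 95.3% of its 75-base windows are shared with an overlapping gene, so its level is uncertain.

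ERH, a small conserved protein found with RNA-processing complexes, was the most abundant of the 30 per length, at 479 ± 34.0 CPM per kilobase in the vector libraries. Its CPM values were 320.4, 305 and 403 for clone A1, 307, 357 and 281 for clone A4 and 392, 348 and 397 for vector. The vector libraries of ERH lay at the upper end, but clone A1 replicate C was higher than each of them. The log2 fold change was -0.20 (SE 0.138, 95% interval -0.50 to 0.09).

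The TREX helicases DDX39B (UAP56) and DDX39A (URH49) are paralogs that load the adaptors onto RNA. DDX39B was at 63.2, 91.1 and 84.2 for clone A1, 64.8, 75.7 and 76.2 for clone A4 and 68.2, 84.1 and 80.0 for vector. DDX39A was at 10.9, 12.8 and 12.5 for clone A1, 10.9, 7.73 and 22.1 for clone A4 and 10.0, 14.5 and 8.49 for vector. Per length, DDX39B made up 85.3% ± 1.37 of the pair in clone A1, 83.1% ± 7.20 in clone A4 and 86.3% ± 2.82 in vector (SD, n = 3), so the more abundant paralog was the same in every group and the shares differ by less than their spread. All 75-base windows of DDX39B also lie in an annotated readthrough gene, so reads of the 2 genes cannot be told apart. Such reads may have been left out of the DDX39B count, so its level and its share of the pair are uncertain. The receptor NXF1 was at 26.5, 37.7 and 37.3 for clone A1, 30.2, 29.3 and 51.5 for clone A4 and 33.1, 47.4 and 29.9 for vector, and its small partner NXT1 was at 6.58, 11.6 and 12.3 for clone A1, 9.61, 12.9 and 10.0 for clone A4 and 8.79, 12.4 and 10.5 for vector. Both had log2 fold changes near 0 for the NCBP2 clones, -0.06 (SE 0.226) for NXF1 and -0.0090 (SE 0.242) for NXT1.

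**Figure D2:**
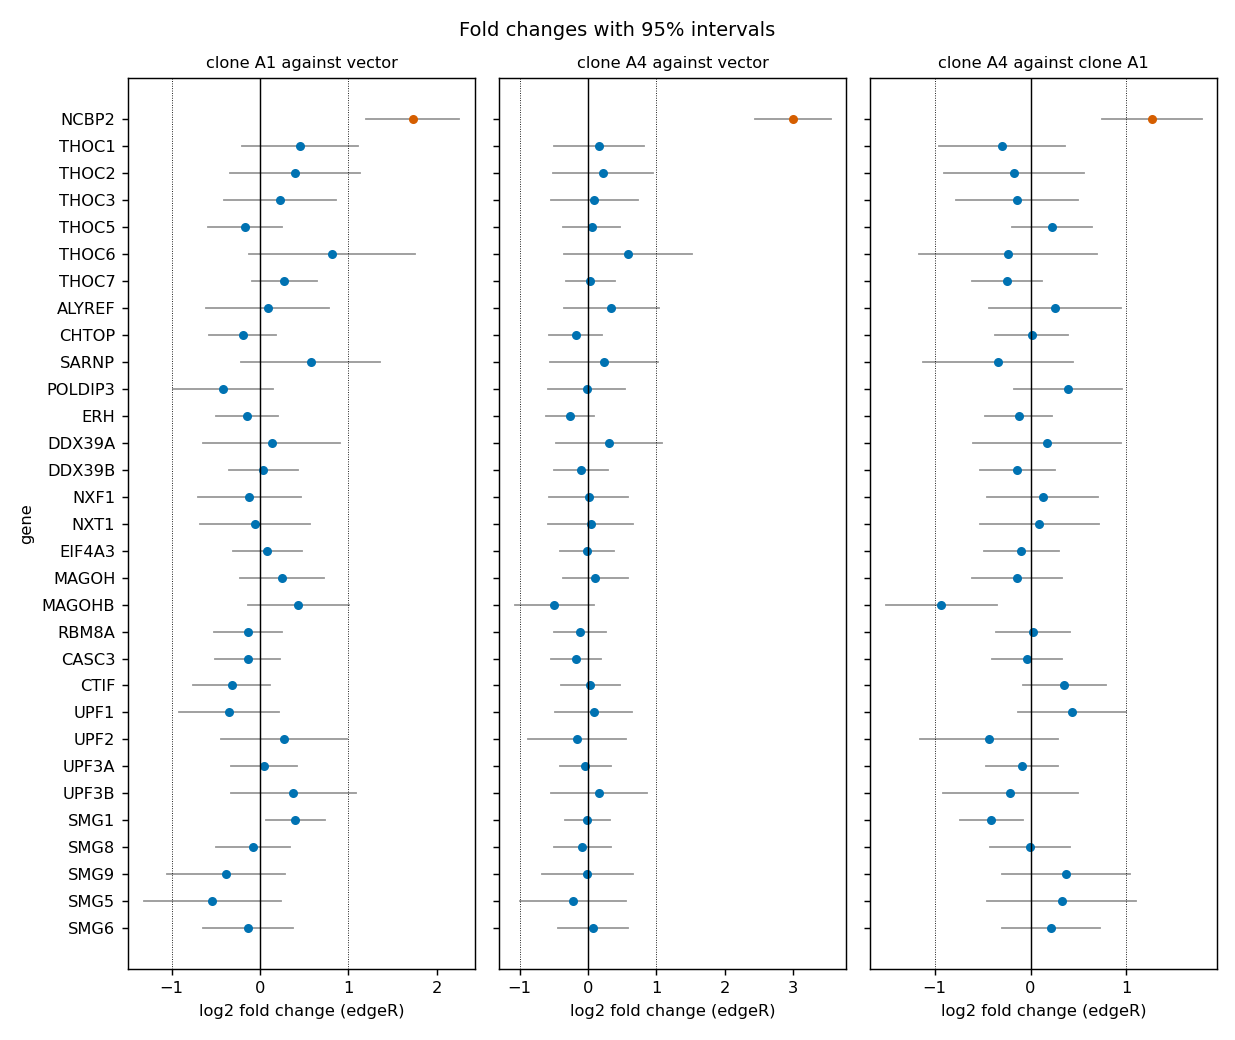
Log2 fold changes by edgeR with 95% intervals (lines) for NCBP2 (orange) and the 30 genes (blue); dotted lines mark a 2-fold change. The NCBP2 intervals lie above 0 in the 3 panels, the 30 intervals include 0 except for SMG1 in the left panel and MAGOHB and SMG1 in the right one, and MAGOHB is the lowest point for clone A4 against clone A1 at -0.93.

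The core exon junction complex is formed by the helicase EIF4A3, which clamps the RNA, the heterodimer of MAGOH or MAGOHB with RBM8A, which locks the clamp, and CASC3. The paralogs MAGOH (chr1:53226900-53238518, minus strand, GRCh38) and MAGOHB (chr12:10604193-10613609, minus strand) are shown in more detail. MAGOHB had the lowest log2 fold change of the 30 genes between the clones, although it did not pass the threshold. The start of their coding sequences is shown since a read within the aligned coding part must cross a difference to be assigned to 1 of them. The coding sequence makes up 441 of the 656 transcript bases of MAGOH and 447 of the 2606 of MAGOHB. It comes from the canonical transcripts of GENCODE release 44 (coding bases 1 to 240 of MAGOH and 1 to 246 of MAGOHB), 5′ to 3′ as DNA letters, and capitals mark bases that differ between the 2 or that only 1 of them has.
MAGOH: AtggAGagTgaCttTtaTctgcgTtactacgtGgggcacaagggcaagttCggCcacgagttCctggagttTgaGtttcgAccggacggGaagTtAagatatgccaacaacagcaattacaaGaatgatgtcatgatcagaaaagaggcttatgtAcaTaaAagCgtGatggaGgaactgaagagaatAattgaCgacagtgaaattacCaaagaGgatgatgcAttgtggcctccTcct
MAGOHB: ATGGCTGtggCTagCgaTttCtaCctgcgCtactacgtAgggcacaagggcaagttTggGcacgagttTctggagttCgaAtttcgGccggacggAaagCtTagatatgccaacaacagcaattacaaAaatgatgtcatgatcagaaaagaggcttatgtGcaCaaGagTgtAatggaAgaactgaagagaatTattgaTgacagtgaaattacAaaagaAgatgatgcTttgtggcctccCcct
The 240 aligned bases shown hold 31 of the differences. Over the 441 aligned bases of the whole coding sequences, 381 (86.4%) are identical and 60 differ, and MAGOHB has 6 further bases at its 5′ end. The longest run of identical bases is 38, and no 75-base window is shared between the 2 genes. The MAGOHB transcript shares 0.987% of its 75-base windows with the pseudogene MAGOH3P.

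MAGOHB was at 105, 62.8 and 80.9 for clone A1, 48.2, 40.4 and 42.2 for clone A4 and 72.6, 37.4 and 74.5 for vector. All 3 clone A4 libraries lay below all 3 clone A1 libraries, the closest being 48.2 and 62.8 CPM. Vector replicates A and C lay within the range of clone A1, and vector replicate B, at 37.4 CPM, lay below clone A4. The log2 fold change of clone A4 against clone A1 was -0.93 (SE 0.266, 95% interval -1.51 to -0.35), the lowest of the 30 genes. Its unadjusted edgeR p was 0.00433 and its adjusted p 0.345, so it did not pass the threshold. Over the alternatives tried, the log2 fold change lay between -1.10 and -0.67, and the adjusted p between 0.0128 and 0.813. The adjusted p passed the threshold with no filter on low counts (0.0128) and with an offset for GC content and length (0.0175, at a log2 fold change of -0.74). Without clone A1 replicate A, its highest library, the log2 fold change was -0.72 (edgeR adjusted p = 0.723). Against vector, MAGOHB had a log2 fold change of 0.43 in clone A1 and -0.50 in clone A4. In bulk libraries, fewer cells with the RNA and less RNA per cell cannot be told apart.

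MAGOH showed no such separation, at 39.0, 34.7 and 47.8 for clone A1, 41.9, 37.2 and 31.1 for clone A4 and 41.3, 26.4 and 34.6 for vector, and its log2 fold change between the clones was -0.14 (SE 0.217, 95% interval -0.61 to 0.33). Per length, MAGOHB made up 33.9% ± 5.75 of the pair in clone A1, 23.1% ± 2.10 in clone A4 and 30.7% ± 4.41 in vector (SD, n = 3). The share ran from 21.5% to 25.5% in clone A4 and from 29.9% to 40.5% in clone A1, so the 2 clones did not overlap, and no test was made of this share. MAGOH was the more abundant paralog per length in all 9 libraries. The summed CPM of the pair was 124 ± 23.9 in clone A1, 80.4 ± 8.78 in clone A4 and 95.6 ± 27.6 in vector.

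The rest of the junction core varied less between libraries than MAGOHB did. EIF4A3 was at 56.0, 66.8 and 72.6 for clone A1, 54.9, 64.9 and 62.9 for clone A4 and 60.6, 71.6 and 52.4 for vector, and its highest library was 1.39 times its lowest. RBM8A (Y14), the partner of both MAGOH proteins, was at 55.9, 48.7 and 53.3 for clone A1, 45.2, 63.7 and 51.5 for clone A4 and 62.2, 58.5 and 53.2 for vector. CASC3 (MLN51) was at 138, 178 and 183 for clone A1, 156, 158 and 172 for clone A4 and 175, 214 and 161 for vector. For these 3 genes the log2 fold changes of the NCBP2 clones against vector were 0.03, -0.13 and -0.16, with SEs of 0.153, 0.148 and 0.142, and all groups overlapped.

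CTIF (chr18:48539031-48863217, plus strand), a translation factor that binds the cap-binding complex, was at 24.1, 31.5 and 29.6 for clone A1, 33.5, 34.0 and 41.3 for clone A4 and 37.2, 40.1 and 28.8 for vector. The clone A4 libraries lay above the clone A1 libraries, the closest being 33.5 and 31.5 CPM. Between the clones its log2 fold change was 0.35 (SE 0.200, 95% interval -0.08 to 0.79) with an edgeR adjusted p of 0.794, and it was 0.0039 with the offset for GC content and length. Against vector the log2 fold change was -0.32 in clone A1 and 0.04 in clone A4.

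Among the UPF proteins, UPF1, the RNA helicase at the centre of NMD, was at 19.2, 29.0 and 31.4 for clone A1, 31.7, 29.6 and 46.2 for clone A4 and 29.1, 43.4 and 28.8 for vector. UPF2, which bridges UPF1 to UPF3, was at 193, 125 and 117 for clone A1, 124, 71.2 and 127 for clone A4 and 148, 62.9 and 149.5 for vector. UPF1 was lowest and UPF2 highest in clone A1 replicate A, and UPF2 was lowest in vector replicate B. Their log2 fold changes for the NCBP2 clones were -0.11 (SE 0.240) and 0.07 (SE 0.295). UPF3A and UPF3B, the paralogs that bind the exon junction complex, were at 80.7, 71.1 and 66.3 for clone A1, 67.7, 77.2 and 60.5 for clone A4 and 69.5, 62.1 and 79.8 for vector, and at 19.6, 16.0 and 15.2 for clone A1, 18.5, 9.10 and 16.3 for clone A4 and 15.3, 7.75 and 16.1 for vector. UPF3B held 19.0% ± 0.580 of the pair per length in clone A1, 17.9% ± 6.28 in clone A4 and 15.5% ± 3.75 in vector. The clone A1 shares (18.6% to 19.7%) lay above the vector shares (11.2% to 18.2%), clone A4 overlapped both, and no test was made of this share. UPF3A had the smallest spread of all 30, 1.33-fold from lowest to highest library, though 33.1% of its 75-base windows also occur in 3 pseudogenes.

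SMG1 (chr16:18804860-18926408, minus strand), the kinase that phosphorylates UPF1, was at 477, 441 and 407 for clone A1, 326, 332 and 339.6 for clone A4 and 318, 292 and 394 for vector. Every clone A1 library lay above every clone A4 and every vector library, though 407 and 394 CPM were close. The log2 fold change was 0.40 (SE 0.152, 95% interval 0.07 to 0.73) for clone A1 against vector and -0.41 (SE 0.152, 95% interval -0.74 to -0.08) for clone A4 against clone A1. The unadjusted edgeR p-values were 0.0219 and 0.0195 and the adjusted ones 0.535 and 0.591, so neither passed. For clone A4 against vector the log2 fold change was -0.0095. With the offset for GC content and length, the values were 0.43 (adjusted p = 0.0976) and -0.40 (adjusted p = 0.147). For SMG1, 14.0% of the 75-base windows also occur in 37 other genes, which unique reads leave out.

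SMG8 and SMG9, which bind SMG1 and hold back its kinase, did not separate the groups. SMG8 was at 30.6, 43.7 and 38.6 for clone A1, 36.8, 36.7 and 39.2 for clone A4 and 41.4, 44.6 and 33.6 for vector, and SMG9 was at 15.8, 28.6 and 37.7 for clone A1, 31.8, 27.9 and 46.5 for clone A4 and 34.8, 43.6 and 28.8 for vector. Of the factors that act on phosphorylated UPF1, SMG6, the endonuclease, was at 24.1, 41.0 and 48.0 for clone A1, 41.9, 42.1 and 46.8 for clone A4 and 37.2, 46.6 and 40.4 for vector. SMG5, which recruits decay enzymes, was at 25.1, 71.1 and 69.0 for clone A1, 58.7, 58.6 and 89.5 for clone A4 and 71.7, 109 and 58.8 for vector. SMG5 had the lowest log2 fold change of the 30 in the NCBP2 clones together, -0.37 (SE 0.304, 95% interval -1.02 to 0.29), and the widest swing between libraries, from 25.1 CPM in clone A1 replicate A to 109 CPM in vector replicate B, 4.37-fold. Without those 2 libraries its log2 fold change was 0.097.

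Counted over the 30 genes, 2 were higher in every clone A1 library than in every vector library, THOC7 and SMG1, beside 6.18% of all genes. Between the clones, MAGOHB and SMG1 were lower in every clone A4 library (5.72% of all genes) and CTIF was higher (7.92%). For clone A4 against vector there was none, beside 12.1% of all genes in either direction. Of the 3 genes that separated the clones, MAGOHB and SMG1 also did so after the trend with GC content and length was taken out, at 72.9, 61.9 and 83.2 against 40.9, 44.2 and 45.7 CPM for MAGOHB and at 436, 444 and 433 against 309, 341 and 347 CPM for SMG1, in clones A1 and A4. The vector libraries were then at 65.7, 55.8 and 64.1 CPM for MAGOHB, all above clone A4, and at 310, 317 and 348 CPM for SMG1. For clone A4 against vector, 4 of the 30 genes separated in this setting, beside 16.1% of all genes.

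The genes that lie next to MAGOHB and SMG1 on their chromosomes had medians of the same sign between the clones. Among the 40 tested genes nearest to MAGOHB, 20 on either side (chr12:9239986-11171608), the median log2 fold change of clone A4 against clone A1 was -0.56 and 33 of 40 were below 0, beside a median of 0.035 over all genes. This was the lowest of the 30 windows drawn in the same way around each of the 30 genes, whose medians ranged from -0.56 to 0.43. The window around SMG1 (chr16:15434475-20797581) was the second lowest, with a median of -0.34 and 31 of 40 below 0. With the offset for GC content and length the medians were -0.43 and -0.35. For clone A1 against vector these 2 windows had the highest medians of the 30, 0.45 and 0.29, and for clone A4 against vector they were at 0.095 and -0.040. In that last comparison MAGOHB was at -0.50 and SMG1 at -0.0095. The MAGOHB window had no clear sign there, with 19 of 40 genes below 0 and a median of -0.018 with the offset. The window around CTIF had a median of -0.18 between the clones, opposite in sign to CTIF, and that around THOC7 had -0.060 for clone A1 against vector. Windows of the same sign as the gene were not particular to MAGOHB and SMG1: 18 of the 30 genes had the sign of their window between the clones, and 19, 18 and 18 did for the NCBP2 clones, clone A1 and clone A4 against vector. The window around ERH (chr14:67647085-70907111) had the lowest median of the 30 for the NCBP2 clones against vector, -0.22 beside -0.20 for ERH, and for clone A4 against vector, -0.23 beside -0.27. That around UPF2 was nearly as low in both comparisons, at -0.20 beside 0.07 for UPF2, and at -0.22 beside -0.16. The part of these neighbourhoods in the MAGOHB and SMG1 differences was not tested. A difference between the clones in genes on the short arm of chromosome 12 was known from earlier results of these data. So was a lower level, in the NCBP2 clones, of genes in the part of chromosome 14 that holds ERH.

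**Figure D3:**
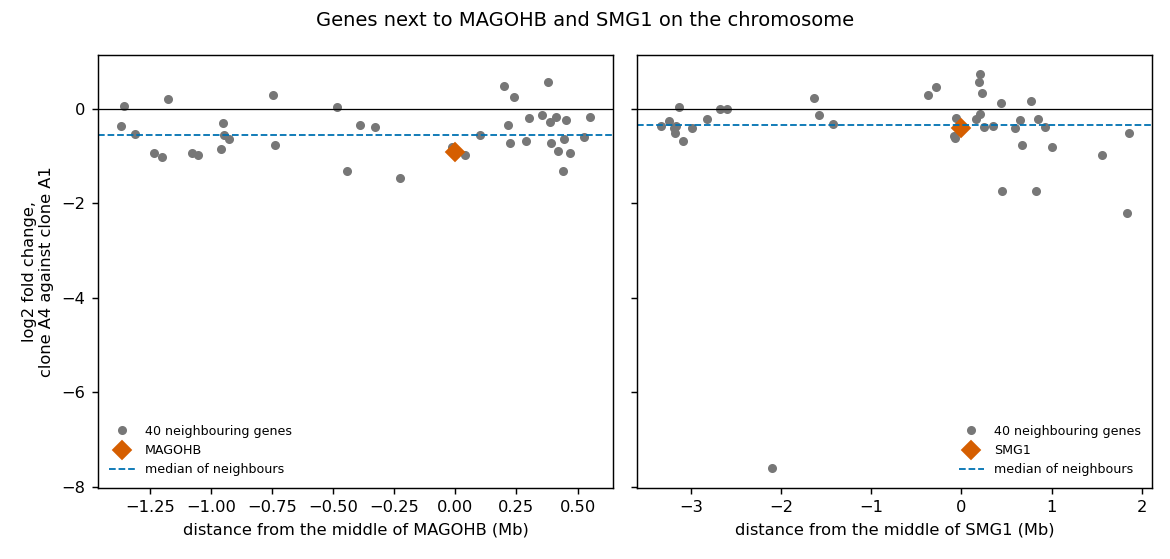
Log2 fold change of clone A4 against clone A1 by distance (Mb) from the middle of MAGOHB or SMG1, for the 40 nearest tested genes (grey), the gene itself (orange) and the median of the 40 (dashed). Most neighbours lie below 0, with medians of -0.56 and -0.34, and 1 unnamed neighbour of SMG1 lies at -7.60.

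Much of the spread within groups followed the base composition of the transcripts. In clone A1 replicate A, 24 of the 30 genes had their highest or lowest value of the 9 libraries. The 10 genes at their highest there had transcripts of 36.9% to 51.8% GC, and the 14 at their lowest had 47.4% to 60.4%. In vector replicate B the pattern turned round, with 6 genes at their highest (47.4% to 57.6% GC) and 8 at their lowest (36.9% to 43.1%). The 11 genes under 45% GC lay at a median of 0.32 log2 CPM above the other 2 libraries of the clone in clone A1 replicate A, and the 8 genes of at least 55% GC lay at a median of -0.83, with none of the 8 above 0. In vector replicate B the same medians were -0.52 and 0.53. Across the 30 genes, Pearson's r between GC content and a library's deviation from its group was -0.80 in clone A1 replicate A and 0.81 in vector replicate B, and -0.34 and 0.52 across 21586 genes, which share a library and are not independent. In the other libraries r across the 30 genes was 0.71 and 0.70 in clone A1 replicates B and C, -0.40 and -0.80 in vector replicates A and C, and -0.56, -0.064 and 0.43 in clone A4 replicates A, B and C. Deviations within a group of 3 are tied to each other, so a library far to one side moves the others towards the opposite side. SMG5, SMG9, ALYREF and UPF1 lie at one end of this pattern, and THOC2, UPF2 and MAGOHB at the other. The cause of this pattern was not tested.

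**Figure D4:**
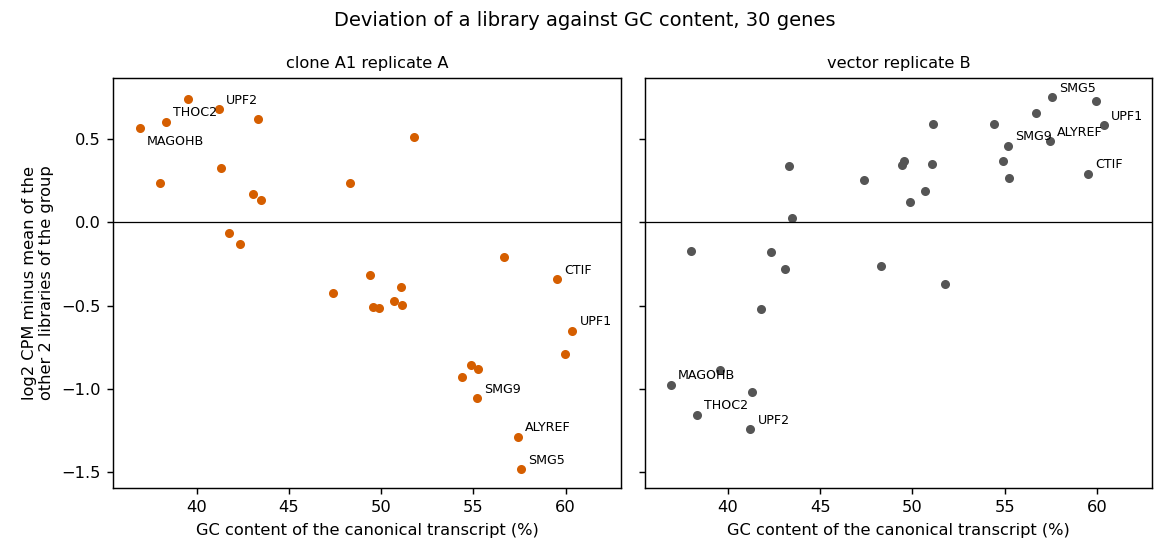
Deviation of clone A1 replicate A and of vector replicate B from the mean of the other 2 libraries of their group (log2 CPM) against GC content of the canonical transcript (%), 1 point per gene of the 30. The points fall with GC content in the first library (r = -0.80) and rise in the second (r = 0.81).

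After a smooth trend with GC content and length was taken out of each library, the median SD of log2 CPM between replicates of the 30 genes was 0.21, beside 0.33 before, and it was smaller for 24 of the 30. The number of genes called among all genes went from 4 to 49 for the NCBP2 clones, from 14 to 185 for clone A1, from 25 to 133 for clone A4 and from 35 to 188 between the clones. Among the 30 it stayed at 0 for the 3 comparisons with vector and became 1, MAGOHB, between the clones. This setting was added after the data were seen, as was leaving out clone A1 replicate A and vector replicate B together. In that second setting the log2 fold change changed sign for 19 of the 30 genes for the NCBP2 clones, 18 for clone A1 and 11 for clone A4 against vector, and for 8 between the clones. For clone A1 against vector these include MAGOHB (-0.03 without the 2 libraries, 0.43 with them), THOC1 (-0.07 and 0.45), UPF2 (-0.29 and 0.27) and SMG5 (0.11 and -0.54). For SMG1 the value was 0.26, beside 0.40, and for THOC6 it was 1.29, beside 0.81.

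The order of the levels per length was led by ERH in the vector libraries. CHTOP (56.8 ± 2.81 CPM per kilobase, SD, n = 3), MAGOH (52.0 ± 11.4), THOC7 (48.9 ± 3.37), CASC3 (47.0 ± 7.04) and DDX39B (46.1 ± 4.91) came next, and neighbours in this order overlapped within their spread. UPF3A followed at 29.7 ± 3.75. From EIF4A3 (24.4 ± 3.82) through MAGOHB (23.6 ± 8.01), UPF2 (23.2 ± 9.58), POLDIP3 (22.3 ± 5.71), ALYREF (21.4 ± 4.80), SMG1 (20.8 ± 3.31) and THOC1 (20.5 ± 6.50) neighbours again overlapped. SMG5 (17.5 ± 5.76), THOC5 (17.1 ± 2.91), NXF1 (16.1 ± 4.07), THOC2 (12.6 ± 4.93), SMG8 (12.4 ± 1.75), RBM8A (11.8 ± 0.915) and NXT1 (9.96 ± 1.71) formed the lower middle. The lowest were DDX39A (7.35 ± 2.09), SMG6 (6.93 ± 0.795), SMG9 (6.51 ± 1.35), UPF1 (6.35 ± 1.56), CTIF (6.14 ± 1.02), UPF3B (5.58 ± 1.97), SARNP (4.77 ± 1.67), THOC3 (4.03 ± 0.606) and THOC6 (2.998 ± 1.20). The lengths are those of 1 canonical transcript per gene, so a gene that uses shorter or longer forms in these cells is misplaced in the order.

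Lists of related genes, also chosen by name, held no gene past the threshold in any comparison. Of 19 other mRNA export factors, 18 could be tested, and LUZP4 was too low. Their median log2 fold change was -0.042 for the NCBP2 clones, -0.022 for clone A1 and -0.051 for clone A4. By edgeR, the smallest p-values in the NCBP2 clones belonged to GLE1, a nuclear pore export factor, at 0.24 (SE 0.155, unadjusted p = 0.145), and to the pore protein RANBP2 at 0.55 (SE 0.401, unadjusted p = 0.192). RANBP2 was at 516, 334 and 327 for clone A1, 450.4, 128 and 463 for clone A4 and 294, 106 and 356 for vector, low in clone A4 replicate B and vector replicate B. The 9 peripheral exon junction factors had medians of 0.11, 0.059 and 0.14 in the same order. Among them CWC22, which brings EIF4A3 to the spliceosome, had 0.79 (SE 0.398, unadjusted p = 0.0670), and the spliceosome protein CWC27 had 0.63 (SE 0.342, unadjusted p = 0.0881), by edgeR. CWC22 was at 85.7, 46.7 and 55.2 for clone A1, 60.6, 21.7 and 54.5 for clone A4 and 34.1, 13.1 and 46.2 for vector. All its clone A1 libraries lay above the vector libraries, the closest at 46.7 and 46.2 CPM, and clone A4 overlapped both. For clone A1 against vector the edgeR log2 fold change was 1.005 (SE 0.445, unadjusted p = 0.0429, adjusted p = 0.647).

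The 12 other NMD factors had median log2 fold changes of 0.045, 0.11 and 0.071 for the NCBP2 clones, clone A1 and clone A4, and the edgeR values with the smallest p for the NCBP2 clones were RUVBL1 at 0.26 (SE 0.170, unadjusted p = 0.148) and NBAS at 0.18 (SE 0.130, unadjusted p = 0.180). Transcripts that NMD is known to degrade are often used to follow its activity. The 12 of them had medians of -0.043, -0.028 and -0.082, and 5, 6 and 5 of them lay above 0. ATF4, a stress transcription factor, was at 130.5, 180.1 and 196 for clone A1, 162, 167 and 225 for clone A4 and 243, 241 and 213 for vector. For the NCBP2 clones it had -0.39 (SE 0.161, unadjusted p = 0.0288) and an adjusted p of 0.784 by edgeR. All its clone A1 libraries lay below the vector libraries, and clone A4 replicate C lay above the lowest vector library. For clone A1 against vector the edgeR value was -0.46 (SE 0.190, unadjusted p = 0.0317, adjusted p = 0.604). The cell cycle inhibitor CDKN1A was at 43.8, 59.6 and 68.3 for clone A1, 73.1, 92.5 and 96.0 for clone A4 and 78.5, 124 and 82.0 for vector. For the NCBP2 clones it had -0.39 (SE 0.235, unadjusted p = 0.120) by edgeR. All its clone A1 libraries lay below all clone A4 and all vector libraries. For clone A1 against vector the edgeR value was -0.73 (SE 0.227, unadjusted p = 0.00741, adjusted p = 0.385), and for clone A4 it was -0.12 (SE 0.225). An unadjusted edgeR p under 0.05 was reached in these lists for the NCBP2 clones, clone A1 and clone A4 by 0, 0 and 0 export factors, 0, 1 and 0 junction factors, 0, 0 and 0 NMD factors and 1, 2 and 0 degraded transcripts.

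**Figure D5:**
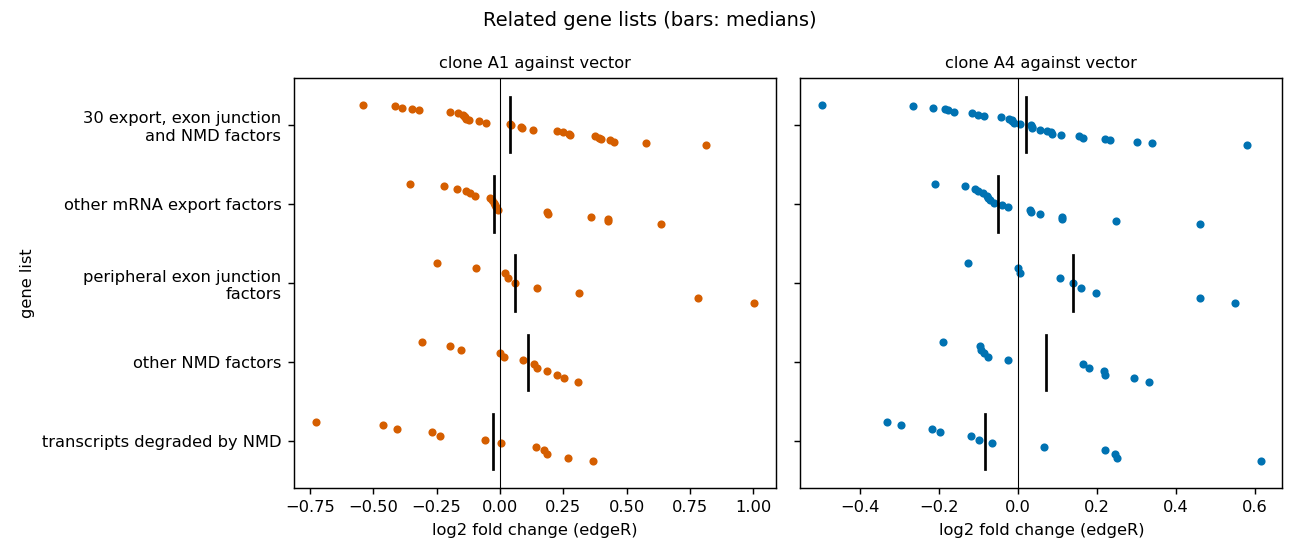
Log2 fold changes by edgeR of each gene (points) in the 30 genes and 4 related lists for clone A1 (left) and clone A4 (right) against vector, with a bar at each list's median. The medians lie between -0.028 and 0.11 in clone A1 and between -0.082 and 0.14 in clone A4, and no point passed the threshold; the panels have different x axes.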

How the data were processed

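The 9 deposited tables hold raw whole-number counts of reads per gene. Per the submitters' processing notes, STAR 2.7.1a and GRCh38 were used, and the annotation used for counting is not given in the sources used here. Column 3, the strand that holds nearly all stranded reads, was used, and the 4 lines that name no gene (44.5% to 63.6% of reads) were left out. Per the labels' protocols, RNA was ribodepleted, although their molecule field names polyadenylated RNA. Symbols and positions come from GENCODE release 44, matched by identifier without version (60295 of 60609, 20 of the 30 genes with the same version). edgeR 4.0.16 in R 4.3.3 (filterByExpr, TMM, robust quasi-likelihood, Benjamini-Hochberg over 21682 genes, threshold 0.05) was fitted with 2 groups and with 3 groups, after a test on simulated data. DESeq2 1.42.0 and limma 3.58.1 gave alternatives. SEs were computed as the log2 fold change over the root of F. Log2 CPM has a prior count of 2. The named genes are NCBP2, all 30 genes and, per related list, the 2 with the smallest p for the NCBP2 clones. The members and lists were chosen with earlier results of these data known, and 1 gene of the related lists is not reported here.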

Additional observations from a re-analysis of the deposited data

Results flagged for a closer look

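Each of the 30 genes was screened over the 6 NCBP2 libraries for a library far from the others, by the gap to its nearest neighbour as a share of the whole range, against Dixon's 95% critical value for 6 values. Chance flags about 1 in 20 independent groups, and 6 of 30 were found here. The 30 genes share their libraries and no share over all genes is given, so this is not shown to be an excess. In 5 of them the library was clone A1 replicate A and its value was the lowest of the 6. These were THOC5 at 56.1 CPM (gap 0.663 of the range), ALYREF at 12.7 CPM (0.662), POLDIP3 at 35.1 CPM (0.680), SMG5 at 25.1 CPM (0.668) and SMG6 at 24.1 CPM (0.771). UPF3B was at 9.10 CPM in clone A4 replicate B (0.673), the lowest of its 6. Both clones are pooled in this screen, while the critical value assumes values from a single population.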

How the results depend on the processing

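Under the 18 alternatives, 0 of the 30 genes was called by any setting in the 3 comparisons with vector, and 1, MAGOHB, between the clones with no filter on low counts (log2 fold change -0.91) and with the GC content and length offset (-0.74). Of 2160 log2 fold changes of single genes, 2129 moved by less than 1 SD between replicates. The sign was the same in every alternative for 8 of 30 genes in each comparison with vector and for 14 of 30 between the clones. The count of all genes called moved far more, and the cause was not tested. In the order of the NCBP2 clones, clone A1 and clone A4, each against vector, followed by the clones against each other, it was 4, 14, 25 and 35 as reported, 108, 274, 185 and 246 by DESeq2, 20, 312, 163 and 231 with no filter on low counts, 216, 297, 233 and 149 by voom with library weights, 49, 185, 133 and 188 with the GC content and length offset, and 29, 22, 117 and 51 without clone A1 replicate A and vector replicate B together. With counts summed per clone it was 0 for the NCBP2 clones, where 2 clones meet 3 and power is lower, and with only the 6 libraries compared it was 7 for clone A1 against vector. With the replicate block it was 13, 38, 53 and 51. Between groups, libraries with the same letter had correlations from -0.10 to 0.18 and those with different letters from -0.27 to 0.22. The labels do not say what the letters mark, so these values do not settle whether they pair the libraries. The block changed no call among the 30. Leaving out 1 library at a time gave 1 to 8, 3 to 14, 7 to 41 and 10 to 56 genes, and 0 of the 30 genes each time. The highest counts were reached without clone A1 replicate A (8 and 41) or vector replicate B (56).

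The number of the 30 genes whose groups do not overlap, 0, 2, 0 and 3 as reported (3.74%, 14.2%, 12.1% and 13.6% of all genes), was 1, 4, 4 and 4 with the GC content and length offset (5.50%, 18.9%, 16.1% and 15.8%), 3, 13, 7 and 7 without the 2 libraries together (16.3%, 46.5%, 27.1% and 22.1%), and 1 for clone A4 against vector without regard to strand (11.4%). Leaving out 1 library at a time gave 0 to 1, 2 to 7, 0 to 7 and 3 to 7, with shares of all genes from 4.49% to 8.58%, 14.2% to 25.8%, 12.0% to 26.8% and 13.6% to 26.8%. Fewer libraries separate more easily. The largest changes in log2 fold change from 1 library were for DDX39A, which without clone A4 replicate C had -0.26 in clone A4 against vector and -0.39 between the clones. RNA levels do not show protein levels or NMD activity, and THOC3, UPF3A, SARNP, POLDIP3, DDX39B and SMG1 share sequence with other annotated genes.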
